A study of Homo sapiens with 6 samples.

Results

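The nuclear-encoded subunits of the respiratory chain were followed in A2780 ovarian cancer cells treated with an inhibitor of the Nudix hydrolase MTH1. Members were protein-coding genes chosen by symbol: those beginning with NDUFA, NDUFB, NDUFC, NDUFS, NDUFV (without the NDUFAF assembly factors), UQCR, COX4I, COX5, COX6, COX7, COX8, ATP5F1, ATP5M or ATP5P, together with *SDHA* to *SDHD* and *CYC1*. Of the 58336 genes in the count table, 90 met this rule, with 38 in complex I, 4 in complex II, 10 in complex III, 19 in complex IV and 19 in complex V. *NDUFA4* and *NDUFA4L2* were counted with complex IV, where the NDUFA4 protein resides, and 174 pseudogenes and 6 long noncoding RNAs with matching symbols were left out.

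A2780 is an established line recorded as ovarian. The cells carried no other stated modification, were grown in medium that contained insulin, and received either DMSO vehicle or 6 µM TH588 (spelled TH-588 in the labels) for 48 h. Each treatment was sequenced as polyA RNA in 3 independent experiments, called replicates A, B and C, so that 6 libraries of 1 cell line were compared. Because this is bulk RNA, fewer cells that express a gene and less RNA per cell cannot be told apart.

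The respiratory chain passes electrons from NADH (complex I) and succinate (complex II) through ubiquinone, complex III and cytochrome c to complex IV, which reduces oxygen. Complexes I, III and IV pump protons across the inner mitochondrial membrane, and complex V, the ATP synthase, uses their return to make ATP. Complex II is encoded wholly in the nucleus, whereas the other complexes also need subunits encoded by mitochondrial DNA, and accessory subunits surround the catalytic core of complexes I, III and IV.

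Total counts were between 28537837 (TH588 replicate A) and 99074175 (TH588 replicate B). The members together took between 1.06 and 1.16% of the counts in every library. The small nucleolar RNA *SNORD3A* took 21.94% of TH588 replicate A against 7.68 to 12.95% elsewhere, and this library stood apart for the members too, as described below. Of the line's markers, the 5 Müllerian or ovarian genes (*PAX8*, *WT1*, *MUC16*, *SOX17* and *EMX2*) summed to at most 0.204 CPM, and of 6 epithelial genes only *EPCAM* and *KRT18* passed the filter on low counts. The epithelial sum was 3.73 to 4.57 CPM with DMSO and 10.7 to 12.1 CPM with TH588, the fibroblast sum, nearly all *COL3A1*, was 1588 to 1917 and 1878 to 2617 CPM, and the muscle sum, mostly *ACTN2*, was 32.8 to 36.7 and 26.1 to 27.0 CPM, while *CKM* within it went from 0.393 ± 0.128 to 1.65 ± 0.112 CPM. Leukocyte genes summed to at most 1.38 CPM and endothelial genes to at most 0.132 CPM, and the part of these genes in the results was not tested.

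Promoter sequences of 5 members are shown as examples, since the rule did not use the letters there. They were chosen after the values were seen and come from RefSeq windows on GRCh38.p14, 5′ to 3′ on the strand of the gene, ending before the first counted exon. Capitals mark letters of the NRF1 motif (GCGCA and GCGC separated by any base), the SP1 box GGGCGG or the CCAAT box, on either strand.
NDUFA12, chr12:95003771-95003870, minus strand: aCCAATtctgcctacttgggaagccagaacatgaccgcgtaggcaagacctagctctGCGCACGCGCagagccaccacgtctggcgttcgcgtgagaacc
SDHB, chr1:17054171-17054270, minus strand: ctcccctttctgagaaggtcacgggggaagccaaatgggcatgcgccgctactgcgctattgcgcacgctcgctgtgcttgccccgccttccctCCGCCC
SDHD, chr11:112086673-112086772, plus strand: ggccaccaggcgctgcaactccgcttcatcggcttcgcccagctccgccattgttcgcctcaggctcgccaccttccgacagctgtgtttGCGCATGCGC
COX8A, chr11:63974507-63974606, plus strand: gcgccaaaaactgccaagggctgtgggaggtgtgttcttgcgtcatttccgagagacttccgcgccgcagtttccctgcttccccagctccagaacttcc
ATP5MC1, chr17:48892665-48892764, plus strand: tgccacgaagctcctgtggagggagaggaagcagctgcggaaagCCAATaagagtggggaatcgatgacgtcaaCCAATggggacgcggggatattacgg
The *NDUFA12* stretch holds an NRF1 match and a CCAAT box, *SDHD* an NRF1 match, *SDHB* an SP1 box and *ATP5MC1* a pair of CCAAT boxes. The *COX8A* stretch holds none of the motifs searched, and neither do those of the lower members *ATP5F1C* and *ATP5PO*, which are not shown. In the longer window described below, *COX8A* has 1 ETS match, 1 SP1 box and 2 CCAAT boxes.

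NRF1, the ETS family factor GABP and YY1 are transcription factors known to act at genes for the respiratory chain. In windows from 250 bases before to 50 after the start, 70 of the 90 members had a promoter. The NRF1 letters were in 17 of them (24.3%), against 7.39% of 22199 promoters of protein-coding genes and 5.78% of all 35116 promoters. ETS letters (CCGGAAGT) were in 14.3% of member promoters against 5.34% and 4.14%, and YY1 letters (ATGGCGGC) in 17.1% against 3.91% and 3.0%. All 5 motifs were searched on both strands, a promoter with several matches was counted once, and matches of different motifs could overlap. On both strands together, the SP1 box (60% against 56.3% and 45%) and the CCAAT box (34.3% against 34.7% and 34.6%) were at shares nearer to those of other genes.

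Among complexes, NRF1 letters were in 4 of 7 promoters of complex III and 1 of 14 of complex IV, and YY1 letters were in 9 of 33 of complex I and 0 of 14 of complex IV and 0 of 13 of complex V. Members that fell after TH588 held NRF1 letters in 6 of 23 promoters (26.1%) and members that did not pass the test in 10 of 39 (25.6%), so this share was close in both. On the strand of the gene alone, the NRF1 share of the members was 12.9%, against 4.73% of protein-coding and 3.71% of all promoters. The YY1 share on that strand was 15.7% against 2.59% and 1.86%. A match to letters is not evidence of binding.

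**Figure D1:**
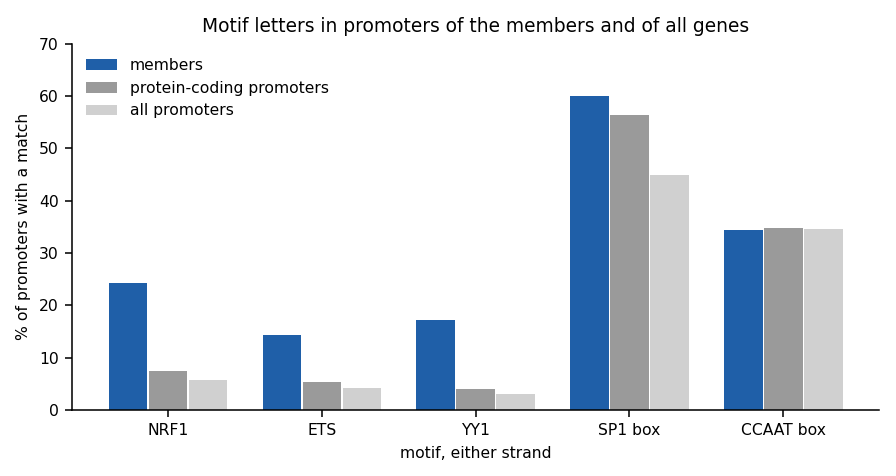
Share of promoters (%) that hold each motif on either strand, for 70 members, 22199 protein-coding genes and all 35116 promoters. NRF1, ETS and YY1 bars are higher for the members (24.3, 14.3 and 17.1%), whereas the CCAAT bars lie between 34.3 and 34.7%.

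Most members that passed the test fell by less than 2-fold after TH588. Of 90 members, 81 passed the filter on low counts, and 29 of them were lower (35.8%) and 4 higher (4.94%) at an adjusted p under 0.05 by edgeR's quasi-likelihood test, while 48 did not pass. Over all 15844 genes tested, 4013 were lower (25.3%) and 3839 higher (24.2%). The share of members that fell was thus above the background and the share that rose below it. No member changed by more than 2-fold, against 2299 of all genes tested (14.5%), of which 754 were lower (4.76% of those tested). The median log2 fold change of the members was -0.18 against 0.02 over all genes, their median size of change was 0.24 against 0.43, and their median log2 CPM was 6.34 against 3.32. All 3 TH588 libraries were below all 3 DMSO libraries in 30 members (37.0%, against 29.0% of all genes) and above them in 5 (6.17%, against 28.7%). With scaling to library size and no composition factor, the median of all genes moved by 0.11 to 0.13 and that of the members was -0.07, which left the members 0.20 below all genes. With 1 library left out, the members' median lay between -0.22 (without TH588 replicate A) and -0.11 (without TH588 replicate C, and also without TH588 replicate B).

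**Figure D2:**
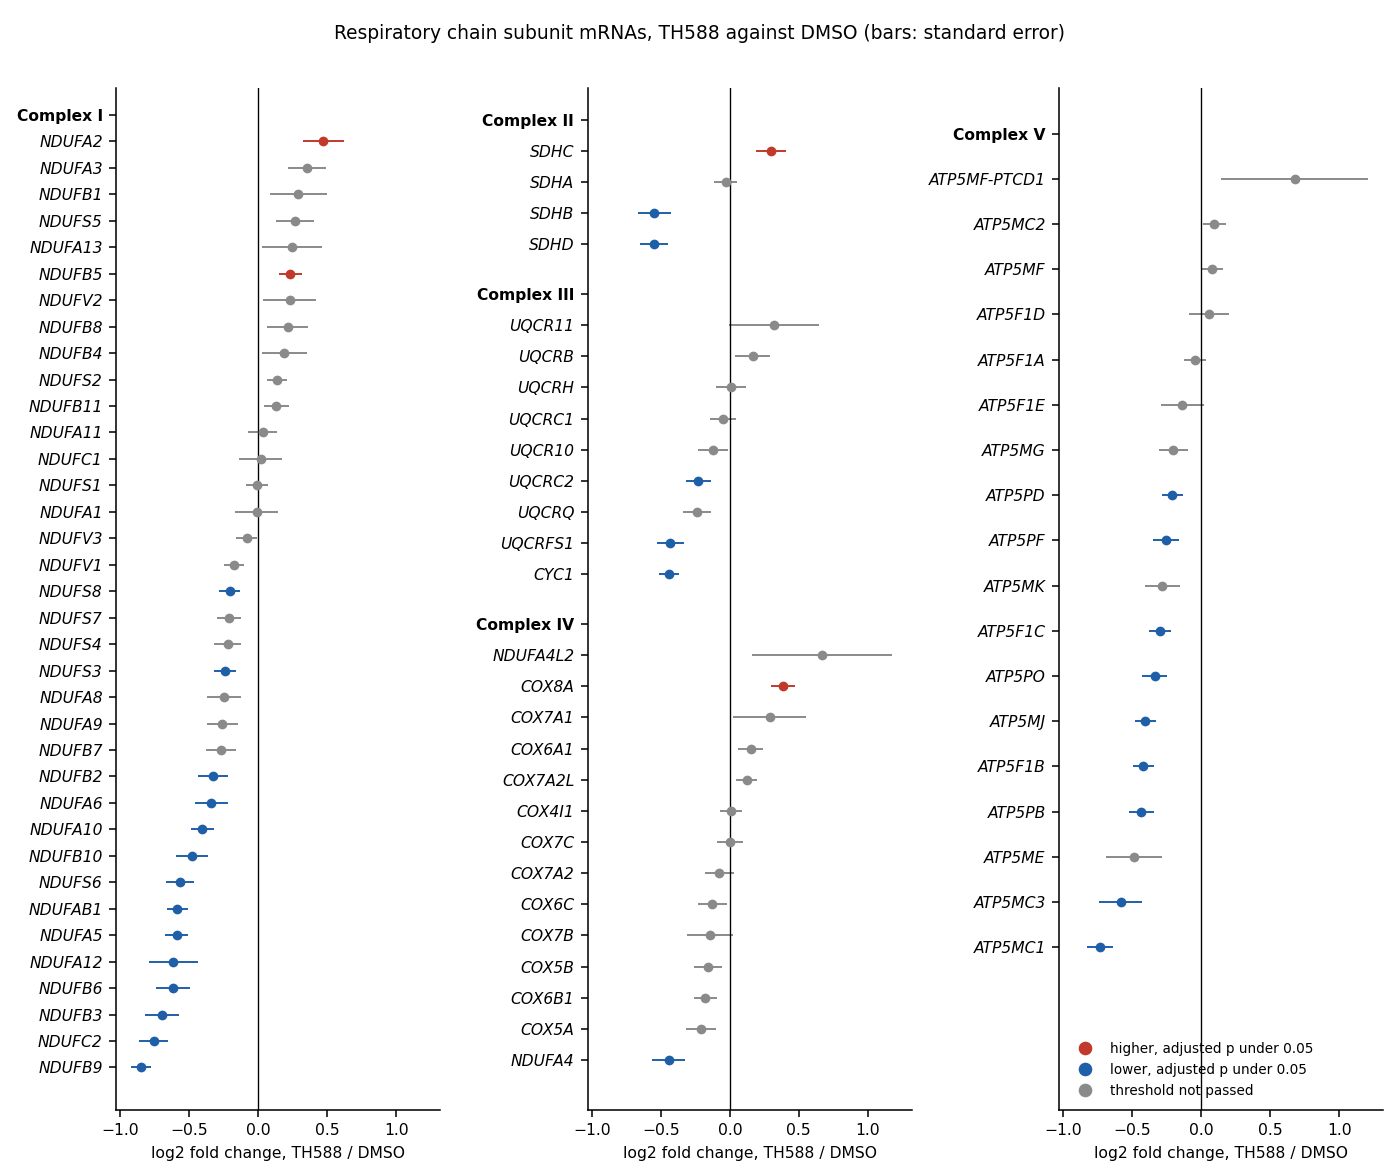
Log2 fold change of TH588 over DMSO (horizontal axis) with its standard error for the 81 members tested, by complex. Points for lower members (29) fill most of the left side in complexes I and V, and those of complex IV lie nearer to 0.

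TH588 replicate A differed from the other treated libraries across the chain. It was the highest of the 3 TH588 libraries in 52 of 81 members, against 10 for replicate B and 19 for replicate C. Relative to the DMSO mean, the median member was at -0.06 in replicate A, -0.28 in replicate B and -0.20 in replicate C on the log2 scale. Shorter members (canonical transcript up to 804 bases) were higher in replicate A than in the mean of B and C by a median log2 of 0.21 and longer ones by 0.11, against 0.09 and -0.02 for shorter and longer genes over the whole table. Without this library, 40 members were lower, 15 of them not called with it, and 5 were higher. Whether its *SNORD3A* share or its lower depth had a part in this was not tested.

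**Figure D3:**
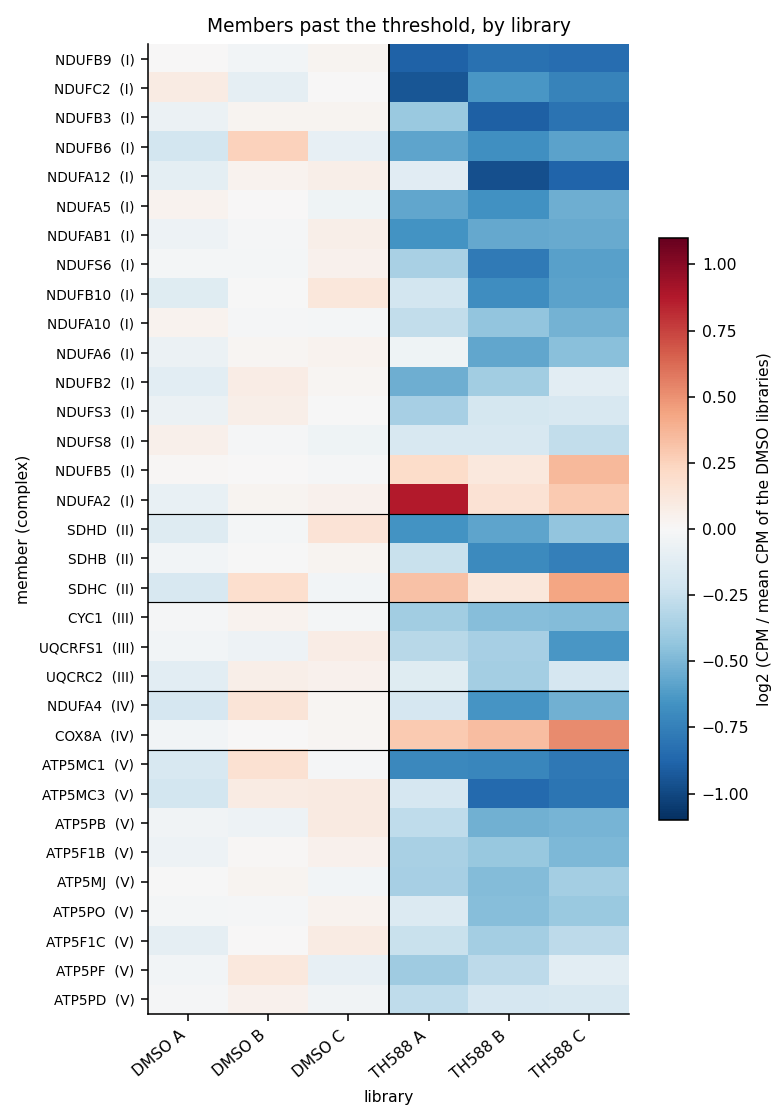
Colour gives log2 of CPM over the mean of the DMSO libraries for the 33 members past the threshold (rows, grouped by complex) in each of the 6 libraries (columns). Blue fills the TH588 columns for the 29 lower members and is paler in replicate A for several, such as NDUFA12 and ATP5MC3.

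In complex I, the NADH dehydrogenase, 14 of 36 members tested fell (38.9%, against 25.3% of all genes). Of the others, 2 rose and 20 did not pass the test, and the median log2 fold change of the complex was -0.21. Its 7 core subunits, among them those that bind the flavin and iron-sulfur clusters, included 2 called lower and none higher, neither of which kept its call without DMSO replicate A, B or C. Its 29 accessory subunits included 12 that fell and 2 that rose. The largest fall was that of *NDUFB9* (ENSG00000147684, chr8:124539103-124568510), an accessory subunit of the membrane arm. It was at 176, 172 and 178 CPM in the DMSO libraries A, B and C, and at 94.8, 99.2 and 97.8 CPM in the TH588 libraries. The groups lay well apart, with a log2 fold change of -0.85 (SE 0.07, edgeR adjusted p = 1.75e-06).

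*NDUFC2* (ENSG00000151366, chr11:78068304-78080219), another membrane arm subunit, was at 27.5, 24.2 and 26.0 CPM with DMSO and 13.5, 16.6 and 15.6 CPM with TH588. Every treated library was below every control, with a log2 fold change of -0.76 (SE 0.10, edgeR adjusted p = 8.22e-05). *NDUFB3* (ENSG00000119013, chr2:201071433-201085750) was at 26.8, 28.4 and 28.5 CPM with DMSO and 21.1, 15.0 and 15.9 CPM with TH588. Its highest treated library was replicate A, still below the controls, and its log2 fold change was -0.70 (SE 0.12, edgeR adjusted p = 0.000481).

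The accessory subunits that fell also included *NDUFAB1*, the mitochondrial acyl carrier protein (66.6 ± 2.81 to 44.3 ± 1.73 CPM, log2 fold change -0.59), *NDUFS6*, a zinc-binding subunit of the NADH end (262 ± 7.75 to 177 ± 26.2 CPM, -0.57), *NDUFA5* (32.1 ± 0.967 to 21.3 ± 0.961 CPM, -0.59) and *NDUFA10* (193 ± 4.69 to 146 ± 13.0 CPM, -0.41). Values here and below are mean ± SD over 3 libraries. The core members called lower were *NDUFS3* (319 ± 14.7 to 269.8 ± 19.1 CPM, -0.24, edgeR adjusted p = 0.0277) and *NDUFS8*, which carries iron-sulfur clusters (55.6 ± 2.11 to 48.1 ± 1.86 CPM, -0.21, edgeR adjusted p = 0.0401). They kept the call in 2 and 1 of the 6 fits with a library left out. *NDUFA12*, whose promoter is shown above, was at 78.8, 87.5 and 88.6 CPM with DMSO and 77.9, 43.5 and 46.1 CPM with TH588, so that replicate A alone stayed near the controls, with a log2 fold change of -0.62 (SE 0.18, edgeR adjusted p = 0.0116) that did not pass without TH588 replicate C or with DESeq2.

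The 2 complex I members that rose were accessory subunits. *NDUFA2* (ENSG00000131495, chr5:140638740-140647785) was at 53.6, 57.7 and 58.5 CPM with DMSO and 104, 63.4 and 69.2 CPM with TH588. Its rise was led by TH588 replicate A, although all treated libraries were above the controls. The log2 fold change was 0.47 (SE 0.15, edgeR adjusted p = 0.0197), and the adjusted p was 0.053 without DMSO replicate B. *NDUFB5* (ENSG00000136521, chr3:179604690-179627647) was at 56.1, 55.6 and 54.9 CPM with DMSO and 63.9, 60.3 and 71.2 CPM with TH588, a log2 fold change of 0.23 (SE 0.08, edgeR adjusted p = 0.0355) that passed in 2 of the 6 fits with a library left out. *NDUFS5* and *NDUFA1*, abundant per length, did not pass, at 230.3, 254 and 251 CPM with DMSO and 378, 238 and 269 CPM with TH588 for the first and 306, 354 and 374 CPM with DMSO and 452, 278 and 296 CPM with TH588 for the second. In both, replicate A was the highest of all 6 libraries and the groups overlapped.

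Complex II, succinate dehydrogenase, showed changes in both directions among its 4 subunits. *SDHA*, the flavoprotein (ENSG00000073578, chr5:218241-256700), was at 242, 225 and 235 CPM with DMSO and 252, 225 and 211 CPM with TH588. The groups overlapped, and the log2 fold change was -0.03 (SE 0.08, edgeR adjusted p = 0.79). *SDHB*, the iron-sulfur subunit (ENSG00000117118, chr1:17018722-17054170), was at 333, 338 and 348 CPM with DMSO and 286, 209 and 202 CPM with TH588. All treated libraries were below the controls, replicates B and C by more than A, with a log2 fold change of -0.55 (SE 0.12, edgeR adjusted p = 0.00213).

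The membrane anchors *SDHC* and *SDHD*, which together bind ubiquinone, moved in opposite directions. *SDHD* (ENSG00000204370, chr11:112086773-112120013) was at 27.8, 30.2 and 33.9 CPM with DMSO and 19.4, 20.5 and 22.7 CPM with TH588, a log2 fold change of -0.55 (SE 0.10, edgeR adjusted p = 0.000713). *SDHC* (ENSG00000143252, chr1:161314257-161375340) was at 165, 213 and 183 CPM with DMSO and 233, 204 and 253 CPM with TH588. The libraries of *SDHC* overlapped between the groups, since DMSO replicate B was above TH588 replicate B, and its log2 fold change of 0.30 (SE 0.11, edgeR adjusted p = 0.0358) did not pass without DMSO replicate A or C or TH588 replicate C. Pseudogenes named after *SDHA*, *SDHB*, *SDHC* and *SDHD* number 4, 1, 4 and 6. The summed CPM of the complex was 768, 806 and 799 with DMSO and 791, 658 and 689 with TH588.

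Complex III passes electrons from ubiquinol to cytochrome c. Of its 9 members tested, 3 fell (33.3%, against 25.3% of all genes) and none rose, with a median of -0.12. *CYC1*, cytochrome c1 (ENSG00000179091, chr8:144095027-144097525), was at 188, 195 and 187 CPM with DMSO and 146, 137 and 137 CPM with TH588. The treated libraries lay together below the controls, with a log2 fold change of -0.44 (SE 0.07, edgeR adjusted p = 0.000344). *UQCRFS1*, the Rieske iron-sulfur protein (ENSG00000169021, chr19:29205321-29213541), was at 84.7, 83.3 and 91.2 CPM with DMSO and 70.1, 67.0 and 55.3 CPM with TH588, with a log2 fold change of -0.43 (SE 0.10, edgeR adjusted p = 0.00258). Those 2 genes are the nuclear-encoded redox subunits of the complex, and neither overlapped between groups. *UQCRC2*, a core protein of the matrix side (ENSG00000140740, chr16:21952660-21983660), was at 289.9, 328 and 324 CPM with DMSO and 286, 242 and 276 CPM with TH588. Its groups were separated by less than the spread within DMSO, and its log2 fold change of -0.23 (SE 0.09, edgeR adjusted p = 0.0493) passed in 1 of the 6 fits with a library left out, that without TH588 replicate A.

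Complex IV, cytochrome c oxidase, had the lowest share past the threshold, with 1 of 14 members tested lower and 1 higher (14.3% called, against 49.6% of all genes) and a median of -0.04. Without TH588 replicate A, 6 of its members were lower and its median was -0.10. *COX8A*, a small subunit of the membrane part (ENSG00000176340, chr11:63974607-63976543), was at 47.0, 48.1 and 48.6 CPM with DMSO and 58.3, 60.5 and 68.7 CPM with TH588. All treated libraries were above the controls, with a log2 fold change of 0.39 (SE 0.08, edgeR adjusted p = 0.00221), and 34.5% of its exon bases overlap another gene. *NDUFA4* (ENSG00000189043, chr7:10931951-10940256) was at 357, 449.6 and 414 CPM with DMSO and 357, 259.5 and 281 CPM with TH588. Replicate A of both groups met at the same level, and the log2 fold change was -0.44 (SE 0.12, edgeR adjusted p = 0.0091).

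The paralogs of complex IV that are known from muscle, lung, testis or other specialised tissue were low. *COX6A2*, *COX6B2* and *COX7B2* had 0 counts in all 6 libraries, where 3 counts correspond to 0.0276 to 0.112 CPM, and *COX4I2* and *COX8C* were at or below 0.0243 CPM. *COX7A1*, the heart and muscle form, was at 1.11, 1.37 and 1.01 CPM with DMSO and 0.896, 1.41 and 1.83 CPM with TH588, 2.28 ± 0.262% of the sum of *COX7A1* and *COX7A2* per exon length with DMSO and 2.92 ± 1.17% with TH588. *NDUFA4L2*, known as a hypoxia-induced form, was below 0.23 CPM in every library.

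Of the widely expressed partners of these paralogs, *COX8A* and *NDUFA4* passed the test, as given above, and the others did not. *COX4I1* was at 119 ± 0.779 CPM in controls and 119.7 ± 7.85 CPM after TH588 (log2 fold change 0.01), *COX6A1* at 73.2 ± 3.62 CPM in controls and 81.3 ± 8.89 CPM after TH588 (0.15), *COX6B1* at 219 ± 12.0 CPM in controls and 194 ± 13.4 CPM after TH588 (-0.18) and *COX7A2L*, which is linked to supercomplexes, at 50.3 ± 1.88 CPM in controls and 54.8 ± 0.268 CPM after TH588 (0.12). *COX7A2* (95.1 ± 5.68 CPM in controls and 90.4 ± 13.6 CPM after TH588, -0.08) and *COX7B* (176 ± 13.7 CPM in controls and 160.2 ± 50.2 CPM after TH588, -0.14) were highest in TH588 replicate A and lowest in replicate B.

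Complex V had 9 of 18 members tested lower and none higher, with a median log2 fold change of -0.27. Without DMSO replicate C, 5 were lower. Its summed CPM was 3706, 4009 and 4014 with DMSO and 3542, 3033 and 3033 with TH588, so that every treated library was below every control. This separation depended on *ATP5F1B*, described below. Without that gene, TH588 replicate A was above DMSO replicate A in the sum. The other complexes overlapped in summed CPM. TH588 replicate A was at 4116 CPM for complex I, 1579.5 CPM for complex III and 1675 CPM for complex IV. On TPM, a scale described below, the sums of complexes I, II and III were also lower in every treated library than in every control. Only complex IV overlapped on that scale, at 2312, 2061 and 2146 TPM with DMSO and 1563, 2067 and 1971 TPM with TH588. On CPM per kilobase, also described below, only complexes II and V were lower in every treated library. There TH588 replicate A was at 2668 for complex I (2182 to 2375 with DMSO). It was at 580.7 for complex III (537.5 to 594.6) and 945.9 for complex IV (858.5 to 945.3). Catalytic *ATP5F1B*, the beta subunit (ENSG00000110955, chr12:56638175-56646068), was at 1118, 1173 and 1202 CPM with DMSO and 911, 873 and 826 CPM with TH588, with a log2 fold change of -0.42 (SE 0.08, edgeR adjusted p = 0.000718). It had the highest CPM of the members. *ATP5F1A*, its partner the alpha subunit, had the highest CPM of the members that did not pass, at 624, 622 and 671 CPM with DMSO and 652, 622 and 585 CPM with TH588 (log2 fold change -0.05, edgeR adjusted p = 0.661), and its groups overlapped.

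All 4 subunits of the peripheral stalk, which holds the catalytic head still, were called lower with all libraries, but *ATP5PB* alone kept its call in each of the 6 fits with a library left out. *ATP5PB*, subunit b (ENSG00000116459, chr1:111448864-111462773), was at 112, 111 and 123 CPM with DMSO and 95.1, 79.8 and 81.2 CPM with TH588, with a log2 fold change of -0.44 (SE 0.09, edgeR adjusted p = 0.00151). *ATP5PO*, the oligomycin sensitivity subunit, went from 142 ± 3.24 to 112 ± 13.2 CPM (log2 fold change -0.34), *ATP5PF* from 33.1 ± 2.45 to 27.6 ± 2.66 CPM (-0.26) and *ATP5PD* from 187 ± 5.87 to 162 ± 6.68 CPM (-0.21). *ATP5PO* lost its call without DMSO replicate C, and *ATP5PF* and *ATP5PD* kept theirs in 1 of the 6 fits each, without TH588 replicate C and without TH588 replicate B. No stalk subunit overlapped between groups. *ATP5F1C*, the gamma subunit of the rotor, fell from 183 ± 11.6 to 149 ± 6.83 CPM (-0.30), a call lost without DMSO replicate C, and *ATP5MJ*, a small membrane subunit, from 89.3 ± 1.91 to 67.4 ± 2.83 CPM (-0.41).

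Subunit c, whose copies form the rotor ring in the membrane, is made from 3 genes that differ in the targeting sequence removed on import. *ATP5MC1* (ENSG00000159199, chr17:48892765-48895871) was at 136, 173 and 153 CPM with DMSO and 94.3, 93.9 and 89.2 CPM with TH588. Every treated library was below every control, with a log2 fold change of -0.74 (SE 0.09, edgeR adjusted p = 3.86e-05). *ATP5MC3* (ENSG00000154518, chr2:175176258-175184607) was at 134, 164 and 165 CPM with DMSO and 136, 85.3 and 88.7 CPM with TH588, with TH588 replicate A inside the range of the controls, a log2 fold change of -0.58 (SE 0.16, edgeR adjusted p = 0.00804); the adjusted p was 0.0528 without TH588 replicate C. *ATP5MC2* (ENSG00000135390, chr12:53632726-53677408) was at 71.9, 80.7 and 73.0 CPM with DMSO and 83.1, 74.5 and 83.3 CPM with TH588. Its groups overlapped, with a log2 fold change of 0.09 (SE 0.08, edgeR adjusted p = 0.383).

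Per exon length, *ATP5MC1* made up 58.0, 59.8 and 57.8% of the 3 genes with DMSO and 46.9, 53.5 and 50.1% with TH588. The share of *ATP5MC2* was 20.0, 18.3 and 18.1% with DMSO and 27.1, 27.8 and 30.7% with TH588. That of *ATP5MC3* was 22.0, 21.9 and 24.1% with DMSO and 26.1, 18.7 and 19.2% with TH588. The first share was lower and the second higher in every treated library than in every control, whereas the third overlapped. With canonical transcript lengths, the share of *ATP5MC2* was 28.6 ± 1.38% and 41.0 ± 2.03%, so the level of a share depends on the length used. Pseudogenes named after *ATP5MC1*, *ATP5MC2* and *ATP5MC3* number 8, 5 and 0, and how their reads were counted is not given in the sources used here.

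**Figure D4:**
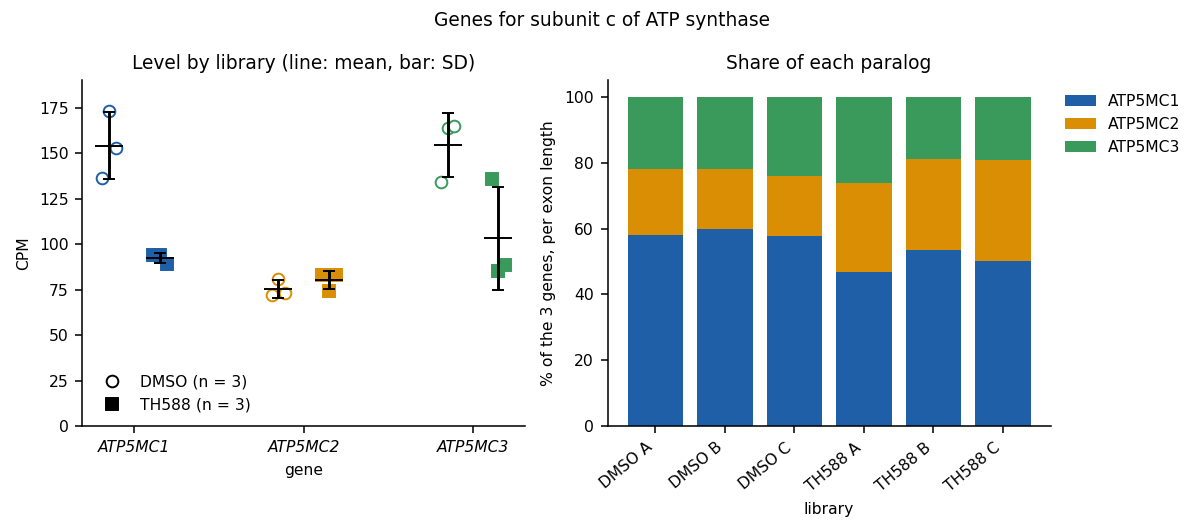
Left, CPM of the 3 genes for subunit c in each library (open, DMSO; filled, TH588; line, mean; bar, SD; n = 3 each). Right, their shares of the 3 genes per exon length in % by library; the ATP5MC2 part is 18.1 to 20.0% with DMSO and 27.1 to 30.7% with TH588.

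Levels of different genes were compared per length, as TPM, counts per kilobase of deposited exon length rescaled to the same total in each library. *NDUFA1* was at 1073 ± 64.7 TPM with DMSO and 945 ± 40.5 TPM with TH588, *NDUFS5* at 1071 ± 60.0 TPM with DMSO and 1143 ± 3.45 TPM with TH588 and *ATP5F1B* at 1201 ± 97.8 TPM with DMSO and 823 ± 173 TPM with TH588. These 3 had the highest levels on this scale, followed with DMSO by *ATP5ME*, a membrane subunit of complex V, and *COX6B1*. Other genes share 44.5% of the exon bases of *NDUFA1* and 61.6% of those of *ATP5ME*, but none of those of *NDUFS5*, *ATP5F1B* and *COX6B1*. The part of this overlap in their levels was not tested. The order depends on the length used: per canonical transcript length, CPM per kilobase with DMSO was 818 ± 83.1 for *NDUFA1*, 759.8 ± 71.8 for *ATP5ME*, 662 ± 24.1 for *ATP5F1B*, 572 ± 88.5 for *NDUFB1*, 506 ± 15.0 for *NDUFS6* and 496 ± 26.4 for *NDUFS5*. Summed over members, TPM was 13695, 12097 and 12789 with DMSO and 9279.6, 11423 and 10484 with TH588, and every treated library was below every control. On CPM per kilobase, a scale added after the values were seen, the sums were 5086, 5547 and 5492 with DMSO and 5615, 4316 and 4509 with TH588. The place of TH588 replicate A turned with the scale: it was the lowest of 6 libraries in TPM and the highest in CPM per kilobase. TPM divides by a total in which a short abundant RNA such as *SNORD3A* weighs more than in the count total.

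Of the 90 members, 48 share exon bases with another gene and 50 have pseudogenes of their name, which makes their levels less certain. Some subunits that the complexes need had few counts. *NDUFA7* did not pass the filter, with 0 to 6 counts per library and 33.5% of its exon bases shared with another gene. *NDUFV2*, a core subunit of complex I, was at 1.84 ± 0.225 CPM in controls and 2.15 ± 0.313 CPM after TH588, *NDUFA13* at 2.06 ± 0.567 CPM in controls and 2.41 ± 0.263 CPM after TH588, *NDUFA9* at 9.97 ± 0.792 CPM in controls and 8.33 ± 0.153 CPM after TH588 and *UQCR11* at 0.739 ± 0.160 CPM in controls and 0.882 ± 0.376 CPM after TH588. The shared exon bases of these 4 were 28.4, 21.0, 9.89 and 10.9%. None of them passed the test, and the part of the counting of shared bases in these levels was not tested. The other members that did not pass the filter were *UQCRHL* and *ATP5MGL* (at most 0.0854 and 0.183 CPM) and *NDUFC2-KCTD14*, with 0 counts, in addition to the complex IV paralogs above. The readthrough gene *ATP5MF-PTCD1*, which had the highest fitted log2 fold change of the members (0.68, SE 0.53), was at 0.109 to 0.523 CPM and shares 93.8% of its exon bases.

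Genes that build or feed the chain were read from the same fit, in which 25.3% of all genes fell, 24.2% rose and the median log2 fold change was 0.02. Among 18 complex I assembly factors (median -0.22), 8 fell and 1 rose (0 to 2 with 1 library left out). The falls were led by *NDUFAF4* (74.7 ± 6.84 to 38.2 ± 2.96 CPM, log2 fold change -0.97) and *NDUFAF6* (21.6 ± 2.14 to 12.6 ± 0.408 CPM, -0.78), whereas *NDUFAF7*, a methyltransferase for a core subunit, rose (78.0 ± 2.68 to 92.0 ± 6.50 CPM, 0.24). Among 9 complex III factors (median -0.37), 5 fell and 1 rose. *BCS1L*, which inserts the Rieske protein, was at 53.7, 52.3 and 49.8 CPM with DMSO and 16.9, 19.2 and 17.4 CPM with TH588, with a log2 fold change of -1.54 (SE 0.09, edgeR adjusted p = 8.91e-08). *UQCC3* was less abundant and was at 4.89, 4.71 and 4.83 CPM with DMSO and 0.747, 1.45 and 1.20 CPM with TH588, with a log2 fold change of -2.01 (SE 0.20, edgeR adjusted p = 5.94e-06). Both fell by more than 2-fold, which no member of the complex itself did. *UQCC6* rose (2.63 ± 0.223 to 4.03 ± 0.363 CPM, 0.60).

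Of 4 complex II factors (median 0.14), 1 rose and 1 fell, the latter 0 to 1 with 1 library left out. *SDHAF4*, a chaperone of SDHA, rose (2.00 ± 0.0300 to 5.58 ± 1.15 CPM, 1.46) and *SDHAF3*, which aids iron-sulfur insertion into SDHB, fell (7.66 ± 0.164 to 6.19 ± 0.551 CPM, -0.32). Of 24 complex IV factors tested (median -0.06), 8 fell and 3 rose, against 5 to 9 and 1 to 5 with 1 library left out. *LRPPRC*, which stabilises mitochondrial mRNAs, fell (1936 ± 66.7 to 1255 ± 29.6 CPM, -0.62), as did *COX10*, which farnesylates heme (34.6 ± 1.54 to 24.0 ± 1.38 CPM, -0.53), and *COX14* (3.59 ± 0.528 to 5.50 ± 1.17 CPM, 0.60) and *COA5* (18.5 ± 2.77 to 27.2 ± 8.26 CPM, 0.54) rose. Of 6 genes for complex V assembly and inhibition (median -0.33), 3 fell and 2 rose. *ATP5IF1*, the inhibitor that blocks ATP hydrolysis by the enzyme, was at 70.4, 59.3 and 60.4 CPM with DMSO and 163, 156 and 181 CPM with TH588, with a log2 fold change of 1.39 (SE 0.09, edgeR adjusted p = 3.25e-07). It was higher in every treated library, while the assembly factors *TMEM70* (83.0 ± 6.04 to 49.0 ± 5.23 CPM, -0.76) and *ATPAF1* (33.1 ± 0.467 to 21.2 ± 0.491 CPM, -0.65) fell. *FMC1* rose from a low level (2.13 ± 0.448 to 3.48 ± 0.267 CPM, 0.70).

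Of 14 genes for electron carriers (median -0.20), 6 fell and 3 rose. *CYCS*, cytochrome c, was at 485, 549.9 and 541 CPM with DMSO and 271, 172 and 187 CPM with TH588. Replicate A was again the highest treated library, and the log2 fold change was -1.32 (SE 0.14, edgeR adjusted p = 1.22e-05). *COQ3*, a methyltransferase of ubiquinone synthesis, fell (12.5 ± 0.222 to 3.45 ± 0.561 CPM, -1.83), whereas *COQ8A* (31.9 ± 1.27 to 104 ± 14.4 CPM, 1.71) and *COQ10B* (17.0 ± 1.97 to 27.1 ± 3.43 CPM, 0.67) rose. Among 8 dehydrogenases that deliver electrons to ubiquinone (median 0.06), 3 fell, led by *CHDH* (0.747 ± 0.291 to 0.295 ± 0.0292 CPM, -1.31) and *GPD2* of the glycerol phosphate shuttle (141 ± 10.4 to 81.5 ± 4.23 CPM, -0.79), and 2 rose, *PRODH* of proline breakdown (0.487 ± 0.176 to 1.67 ± 0.443 CPM, 1.78) and *ETFDH* of fatty acid oxidation (25.5 ± 1.51 to 44.5 ± 3.38 CPM, 0.80).

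Of 16 regulators of mitochondrial biogenesis tested (median -0.34), 9 fell and 1 rose, the latter 0 to 2 with 1 library left out. The coactivators *PPARGC1B* (15.4 ± 1.03 to 6.33 ± 1.38 CPM, -1.26) and *PPRC1* (134 ± 5.46 to 75.6 ± 12.6 CPM, -0.82) fell, *GABPA*, a subunit of GABP, rose (28.6 ± 0.968 to 35.8 ± 4.37 CPM, 0.33), and *PPARGC1A* had 0 counts in every library. Other regulators were named after their values were seen. Of the remaining GABP subunits, *GABPB1* fell (21.5 ± 0.612 to 12.4 ± 0.594 CPM, -0.80) and *GABPB2* did not pass the test (-0.10). *NRF1* (18.0 ± 0.323 to 11.8 ± 1.05 CPM, -0.62), *YY1* (105 ± 2.75 to 85.6 ± 2.97 CPM, -0.29) and *TFAM*, which maintains mitochondrial DNA (93.5 ± 4.44 to 53.2 ± 8.01 CPM, -0.81), fell. Of 13 genes of the tricarboxylic acid cycle (median -0.265), 7 fell and none rose, with *FH*, fumarase (238 ± 12.0 to 118 ± 18.4 CPM, -1.02), and *SUCLG1* (143 ± 7.59 to 82.3 ± 14.3 CPM, -0.80) leading. Of 8 genes that shape cristae (median -0.29), 4 fell and none rose, led by *CHCHD3* (101 ± 3.70 to 44.7 ± 4.44 CPM, -1.18) and *APOO* (23.0 ± 1.30 to 12.3 ± 0.477 CPM, -0.90).

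The 13 subunits encoded by mitochondrial DNA took only 0.00637 to 0.0111% of the counts. Of these, 4 fell (30.8%, against 25.3% of all genes) and none rose, and their median log2 fold change was -0.44. Between 2 and 7 fell with 1 library left out. All TH588 libraries were below all DMSO libraries in 2 of them (15.4%, against 29.0% of all genes). *MT-ND6* (4.62 ± 0.643 to 2.56 ± 0.332 CPM, -0.85) and *MT-ND5* (17.9 ± 3.27 to 12.3 ± 2.02 CPM, -0.56), both of complex I, led the falls.

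**Figure D5:**
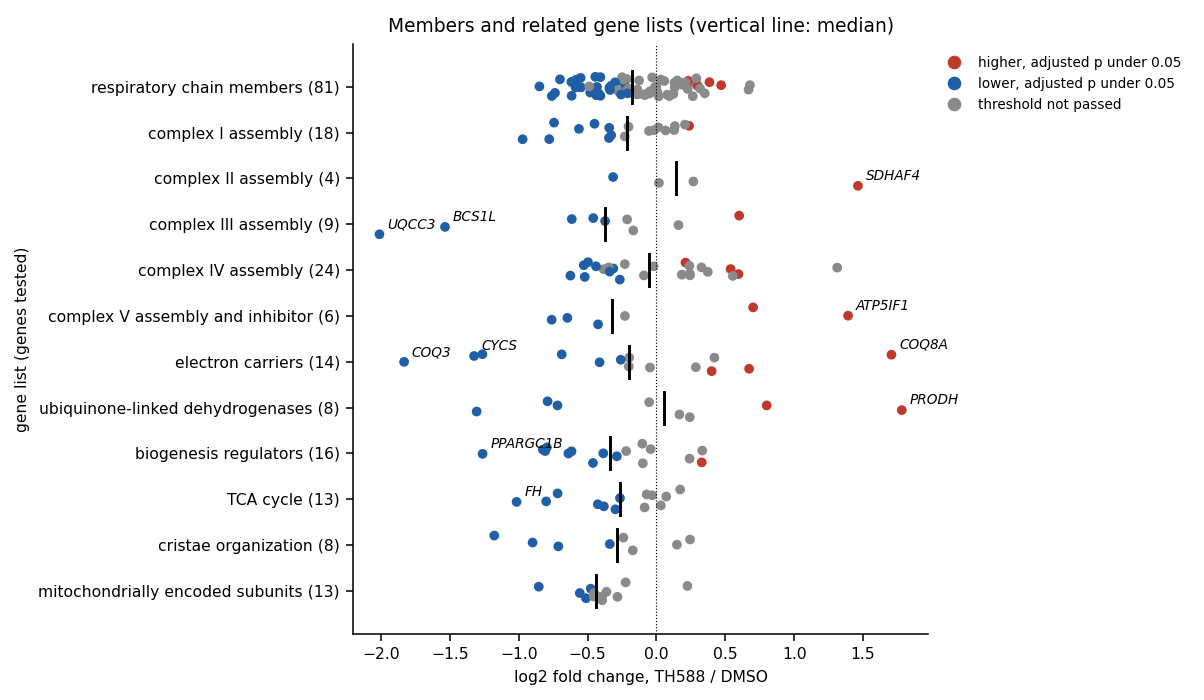
Log2 fold change of TH588 over DMSO (horizontal axis) for each gene tested in the members and 11 related lists (rows, genes tested in brackets), with the median as a vertical line and colour for the call. The members lie between -0.85 and 0.68, while single genes of the assembly and carrier lists reach -2.01 and 1.71.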

How the data were processed

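RNA of 3 DMSO and 3 TH588 libraries was analysed from the raw counts per gene deposited by the authors. According to the submitters' processing notes, reads were aligned to GRCh38 with TopHat and counted with featureCounts 1.4.6. Strand, multi-mapping and overlap settings are not given in the sources used here. The deposited exon length, in bases, was used for TPM.

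Counts were compared with edgeR 4.0.16 in R 4.3.3 (TMM, default filter on low counts, quasi-likelihood test), and p-values were adjusted by the Benjamini-Hochberg method over all 15844 genes. Standard errors were taken from the fold change and the F statistic. CPM are on TMM library sizes. Floors of 3 counts cover counting error only. With 3 libraries against 3, the smallest p an exact permutation test can give for 1 gene is 0.1. Replicates of a group differed by a chi-square per degree of freedom of 25 to 176, so each counted as 1 sample.

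Members and lists were chosen with earlier results of these data known. Named members were the 3 largest rises and falls of complexes I, III, IV and V among called genes without overlap. All SDH genes, paralog sets, members that failed the filter and the 3 most abundant without a call, by CPM per kilobase, were also named. In each related list, the 2 largest rises and falls were named. Others were named after their values were seen (further called members of complexes I and V, low core subunits, ATP5F1A, members compared by level, some regulators). Marker lists were read the same way. Symbols were matched by Ensembl identifier for 57754 genes, gene types came from GENCODE release 44, whose loci overlapped those of all 90 members, and exon overlaps were computed from the deposited exon coordinates. The planned scale for levels was TPM; CPM per kilobase, GC trend removal, canonical transcript length and protein-coding promoters were chosen after seeing the data. The fit was tested on simulated data. The alternatives were DESeq2 1.42.0 and its size factors, limma-voom (limma 3.58.1), library size only, the 10 most abundant genes left out, at least 10 counts in every library, no filter, a length trend removed, the replicate letter as a block, an adjusted p under 0.01 and each library left out.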

Additional observations from a re-analysis of the deposited data

How the results depend on the processing

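The members' median log2 fold change was below 0 and below that of all genes in every alternative. Between 20 and 40 members were lower, and 18 of the 29 lower members kept their call in every alternative at the same threshold. None of the 4 higher members did, and *COX8A* alone passed with each library left out (it did not pass with a GC trend removed). Higher members numbered 7 with library size only, 2 with the replicate block and 1 at an adjusted p under 0.01, and between 2 and 6 with 1 library left out. At an adjusted p under 0.01, 5833 genes were called over the table. The replicate block gave 25 lower members and 7195 called genes. Libraries with the same letter did not deviate together (correlations of -0.07, -0.08 and 0). With 3 libraries per group, these values cannot show whether the letters pair the libraries. Complex IV had 4 lower members after removal of the length trend.

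Genes that changed sign were not called with all libraries, although *NDUFA1* and *COX7B* were lower without TH588 replicate A, where each was at the lowest value given here. *COX7A2* was at 0.041 with a GC trend removed, 0.017 with library size only and, with 1 library left out, between -0.186 and 0.016. *NDUFA1* was at 0.008 with at least 10 counts, 0.072 with library size only and between -0.251 and 0.118 with 1 library left out. *SDHA* was at 0.065 with library size only and between -0.091 and 0.045 over the libraries left out. Over the same fits *COX4I1* ranged from -0.034 to 0.069 and *COX7B* from -0.407 to 0.024. The cause was not tested. Depth limits the low genes: 3 counts are 0.0276 to 0.112 CPM.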
